A study of Mus musculus with 12 samples.

Results

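The immunoglobulin rows of the expression table were examined across 3 groups of splenic regulatory T cells (Treg), a sort in which antibody genes are not a defining product. Rows of the deposited microarray table were taken where every annotated gene symbol began with Ighv, Igkv, Iglv, Ighg, Igha, Ighm, Ighd, Ighe, Igkc, Igkj, Iglc or Iglj (Ighmbp2 excepted), together with Jchain. This gave 35 rows of the 25335 rows with a gene symbol, and they carried 24 symbols. Of the 35 rows, 20 named variable segments (3 Ighv, 16 Igkv and 1 Iglv1), 9 named constant segments (7 Ighm and 2 Ighg3), 3 named both kinds, 1 named variable and joining segments together, 1 named Igkj1 and 1 named Jchain. Symbols with several rows were numbered from the brightest row, and 5 rows carried several symbols.

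DEREG mice, in which Foxp3, the transcription factor that defines Treg, drives a fusion of the diphtheria toxin receptor and green fluorescent protein, were sensitized and challenged with ovalbumin. Each group had 4 arrays, and the labels call them biological replicates. The iTreg group came from mice given intravenous immunoglobulin (IVIg, pooled human IgG protein) at 2 g/kg after diphtheria toxin at 40 ng/g had depleted endogenous Treg. The e_iTreg group came from mice given the same IVIg without toxin, and the labels call it a mix of endogenous and induced Treg. For eTreg, the control protein human serum albumin was given at 2 g/kg. The series design lists eTreg without toxin. The growth protocol is worded alike for all samples and places the toxin before either protein. No group with toxin and albumin was analysed here, so IVIg and toxin differ together between iTreg and eTreg. All cells were T lymphocytes sorted from spleen by flow cytometry, per the labels, which do not state the gate.

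An antibody gene is assembled in B cells by joining a variable to a joining segment, with a diversity segment between them in heavy chains, and the product is spliced to a constant region. Ighm encodes the constant region of IgM, Ighg3 that of IgG3, and the Igkv and Iglv segments belong to the kappa and lambda light chains. Plasma cells transcribe the assembled genes at very high levels, and Jchain encodes the joining chain that links subunits of secreted IgM and IgA. T cells rearrange T cell receptor genes instead.

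Jchain, the one member that is not an immunoglobulin segment and the one with an entry in the promoter table used here, is shown by its promoter because its values turned with those of the segments. The window runs from 250 bases before to 50 bases after the RefSeq start site, at chr5:88527848-88528147 of GRCm38.p6, minus strand, 300 bases read 5′ to 3′. Capitals mark the E-box CAGGTG on the opposite strand, with its first base 6 bases after the start site counted from 1.
Jchain: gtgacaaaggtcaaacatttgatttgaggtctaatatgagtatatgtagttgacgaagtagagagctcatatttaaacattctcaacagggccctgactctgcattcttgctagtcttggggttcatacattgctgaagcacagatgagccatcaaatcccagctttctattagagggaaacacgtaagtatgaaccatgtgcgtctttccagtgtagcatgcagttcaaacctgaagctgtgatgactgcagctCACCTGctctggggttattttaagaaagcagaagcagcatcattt
Both strands were searched for 3 motifs that do not overlap one another here. CAGGTG occurred in 20.2% of 32851 promoters of the same length. The octamer ATGCAAAT, present in 1.74% of those promoters, and GAGGAA, present in 28.3%, have no match of these letters in this window.

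Levels below are log2 values as deposited, differences are log2 differences with their standard errors, and a row was called at an adjusted p under 0.05. Pairwise correlations between arrays ranged from 0.967 to 0.993, and 12 arrays limit the precision of each value. T cell genes marked the sort: Foxp3 stood between 11.84 and 12.56 and the mean of 6 T cell identity genes, Cd3e and Cd4 among them, between 11.67 and 11.86 in all 12 arrays. The mean of 17 B cell markers lay between 6.5 and 8.05. In these bulk samples, fewer cells of a type and less RNA per cell cannot be told apart.

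4 arrays stood apart in the immunoglobulin rows, and the medians and most named differences are also given without some or all of them. In iTreg replicate 4 all 35 rows were the highest of the 12 arrays, against 7.74% of all rows tested. In eTreg replicates 3 and 4 and e_iTreg replicate 4, which are also the 3 arrays lowest in B cell markers, 33 of 35 rows averaged lower than in the other 5 eTreg and e_iTreg arrays. Sex-linked genes set some of these arrays apart as well. Eif2s3y, a Y-linked gene, stood at 4.47 in iTreg replicate 4 and 4.33 in eTreg replicate 3, against 7.12 to 9.72 in the other 10 arrays, and Xist stood at 5.82 in e_iTreg replicate 4, against 10.26 to 11.37 in the other 11. All remaining arrays, eTreg replicate 4 among them, were high in both genes, and the labels do not give the sex of the mice. The part of the sex-linked difference in the immunoglobulin values was not tested.

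**Figure D1:**
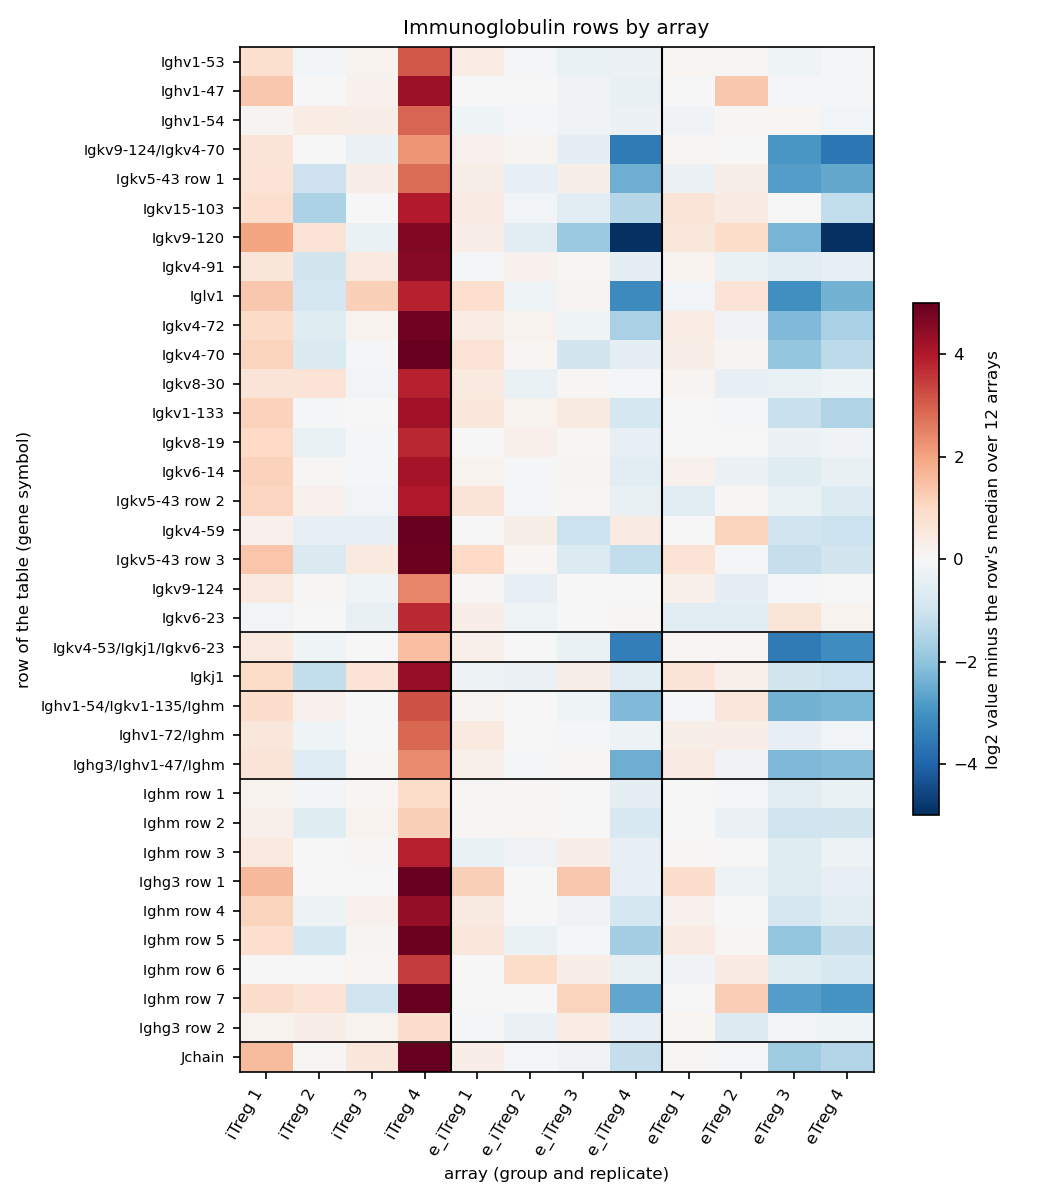
Each of the 35 immunoglobulin rows (vertical axis) in each of the 12 arrays (horizontal axis), coloured by its log2 value minus the row's own median over the 12 arrays, with colours ending at 5 units either way. The column of iTreg replicate 4 is red throughout, and e_iTreg replicate 4 and eTreg replicates 3 and 4 hold most of the blue cells.

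The first comparison asked how iTreg differ from eTreg. All 35 rows had a higher mean in iTreg, by a median of 1.60 (range 0.48 to 3.29), while the median over all rows tested was -0.01 and 46.8% of all rows were higher. No row was called by limma, against 10% of all rows tested, with 5.38% of rows called higher and 4.63% lower. At an unadjusted p under 0.05 there were 21 of 35 rows, against 21.7% of all rows. The arrays of a group lay far apart in these rows: the median standard deviation within iTreg was 1.93, against 0.16 over all rows. In 2 of the 35 rows, Ighv1-54 and Ighg3 row 2, every iTreg array lay above every eTreg array, a share close to the 6.96% of all rows tested.

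The second comparison set iTreg against e_iTreg, both given IVIg. Again all 35 rows had a higher mean in iTreg, by a median of 1.26 (range 0.36 to 3.74), against a median of -0.07 over all rows, of which 36.8% were higher. No row was called by limma, against 11.2% of all rows, with 6.48% called higher and 4.70% lower, and 8 of 35 had an unadjusted p under 0.05, against 26.3% of all rows. In 2 of the 35 rows, Ighv1-47 and Ighv1-54, every iTreg array lay above every e_iTreg array, against 7.62% of all rows. The comparisons with eTreg and with e_iTreg share the iTreg arrays, so their values are not independent.

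The third comparison, e_iTreg against eTreg, asked what IVIg changed without depletion. The mean was higher in e_iTreg in 30 of 35 rows, by a median of 0.24, against 0.03 over all rows, of which 59.0% were higher. No immunoglobulin row and none of the 25335 rows was called by limma (0% called), and at an unadjusted p under 0.05 there were 0 immunoglobulin rows against 6.95% of all rows. The smallest adjusted p of an immunoglobulin row in limma was 0.758, for Ighm row 2. In no row did the e_iTreg arrays all lie above the eTreg arrays, against 2.56% of all rows.

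Jchain had the smallest p of the 35 rows in iTreg against eTreg. Its level was 8.18, 6.67, 7.16 and 11.69 in iTreg replicates 1 to 4, then 6.94, 6.55, 6.43 and 5.42 in e_iTreg, against 6.68, 6.54, 4.84 and 5.16 in eTreg. The fourth iTreg array lay above all others by at least 3.51, while iTreg replicate 2 lay below the highest eTreg array, so the groups overlapped. The difference between iTreg and eTreg was 2.62 ± 0.81 (SE, n = 4 each; limma, adjusted p = 0.0563), with an unadjusted 95% interval of 0.88 to 4.36. Against e_iTreg it was 2.09 ± 0.81 (limma, adjusted p = 0.119), and between e_iTreg and eTreg 0.53 ± 0.81 (limma, adjusted p = 0.878). Leaving out iTreg replicate 4 gave 1.53 ± 0.47 against eTreg (limma, adjusted p = 0.0604) and 0.999 against e_iTreg (limma, adjusted p = 0.211).

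Among the constant segments, Ighm was bright in 2 rows and dimmer in 5. Ighm row 1 stood at 13.17, 12.86, 13.09 and 13.92 in iTreg, against 13.04, 12.94, 12.48 and 12.65 in eTreg. Its difference of 0.48 ± 0.20 was the smallest of the 35 (limma, adjusted p = 0.171), and it was 0.26 without iTreg replicate 4. The e_iTreg arrays lay at 13.06, 13.05, 12.96 and 12.52, within the span of the other 2 groups. Ighm row 2 gave 13.11, 12.26, 13.04 and 14.07 in iTreg, against 12.86, 12.60, 11.89 and 11.95 in eTreg. It differed by 0.80 ± 0.32 (limma, adjusted p = 0.152), with iTreg replicate 2 inside the eTreg range, and by 0.48 without iTreg replicate 4.

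Ighm row 7 varied most of the constant rows. It was at 7.09, 6.91, 5.21 and 11.24 in iTreg, at 6.19, 6.19, 7.34 and 3.64 in e_iTreg, and at 6.26, 7.46, 3.48 and 3.26 in eTreg. Each group thus held arrays at least 3.69 apart, and iTreg overlapped both other groups. Its difference was 2.50 ± 1.17 against eTreg (limma, adjusted p = 0.229) and 1.77 ± 1.17 against e_iTreg (limma, adjusted p = 0.353). These were 1.30 and 0.56 without iTreg replicate 4, and without the 3 low arrays as well -0.45 and -0.17. The remaining Ighm rows, 3 to 6, differed between iTreg and eTreg by 1.17 to 1.91, with adjusted p-values from 0.186 to 0.296 in limma, and by 0.30 to 0.70 without iTreg replicate 4.

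The IgG3 constant region had 2 rows, which did not behave alike. Ighg3 row 1 was at 9.12, 7.51, 7.47 and 12.75 in iTreg, at 8.67, 7.48, 8.85 and 7.08 in e_iTreg and at 8.37, 7.26, 6.91 and 7.09 in eTreg. Apart from iTreg replicate 4 its arrays were mixed between groups, with a difference of 1.81 ± 0.87 against eTreg (limma, adjusted p = 0.248). Without that array it was 0.63 (limma, adjusted p = 0.543), and without the 3 low arrays as well 0.22. Ighg3 row 2 was dim, at 5.38, 5.54, 5.37 and 6.09 in iTreg, at 5.11, 4.90, 5.56 and 4.79 in e_iTreg and at 5.31, 4.54, 5.05 and 5.01 in eTreg. Here the iTreg arrays lay close together and all above eTreg, with a difference of 0.62 ± 0.20 (limma, adjusted p = 0.0672), but not above e_iTreg (0.50 ± 0.20; limma, adjusted p = 0.126).

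Of the variable segments, Igkv1-133 had the smallest p in iTreg against eTreg. It stood at 6.68, 5.45, 5.50 and 9.73 in iTreg, at 6.05, 5.67, 5.97 and 4.62 in e_iTreg and at 5.53, 5.40, 4.40 and 4.02 in eTreg, so iTreg replicates 2 and 3 were close to the higher eTreg arrays. The difference was 2.00 ± 0.72 (limma, adjusted p = 0.104), and 1.04 without iTreg replicate 4 (limma, adjusted p = 0.158). Next by p came Igkv5-43 row 2, Iglv1 and Igkv8-30, with differences of 1.67 ± 0.63, 2.60 ± 1.02 and 1.44 ± 0.58 (limma, adjusted p = 0.121, 0.140 and 0.154). Without iTreg replicate 4 these were 0.77, 1.78 and 0.58, and without the 3 low arrays as well 0.63, 0.28 and 0.52. Iglv1, a lambda variable segment, was at 8.97, 6.74, 8.83 and 11.45 in iTreg, at 8.47, 7.42, 7.76 and 4.44 in e_iTreg and at 7.48, 8.32, 4.54 and 5.26 in eTreg. The eTreg arrays fell into a pair near 8 and a pair near 5.

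Igkv9-120 had the widest range of the 35 rows, 10.59 log2 units. It was at 10.59, 9.32, 8.28 and 13.26 in iTreg, at 8.97, 8.05, 6.79 and 2.67 in e_iTreg and at 9.21, 9.54, 6.29 and 3.25 in eTreg. The arrays of e_iTreg and of eTreg spread over 6.31 and 6.29 units, and the higher ones of each lay within the iTreg range. It also had the largest differences over all 12 arrays, 3.29 ± 1.47 against eTreg (limma, adjusted p = 0.203) and 3.74 ± 1.47 against e_iTreg (limma, adjusted p = 0.120). Against eTreg the difference was 2.02 without eTreg replicate 4, 2.33 without iTreg replicate 4, 0.99 without the 3 low arrays and 0.024 without all 4 of these arrays (limma, adjusted p = 0.995). Against e_iTreg it was 2.42 without e_iTreg replicate 4 and 1.46 without all 4.

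The heavy chain variable segments were 3 rows, Ighv1-47, Ighv1-53 and Ighv1-54, and they and Igkv9-120 had the smallest p-values among variable rows in iTreg against e_iTreg. Ighv1-54 was dim, at 2.72, 2.93, 2.91 and 5.50 in iTreg, at 2.36, 2.52, 2.42 and 2.28 in e_iTreg and at 2.40, 2.64, 2.67 and 2.44 in eTreg. Its iTreg arrays lay above every other array, with differences of 1.12 ± 0.43 against e_iTreg (limma, adjusted p = 0.116) and 0.98 ± 0.43 against eTreg (limma, adjusted p = 0.202). These were 0.46 and 0.32 without iTreg replicate 4. Ighv1-47 and Ighv1-53 differed by 1.61 ± 0.67 and 1.07 ± 0.49 against e_iTreg (limma, adjusted p = 0.144 and 0.181), and by 0.67 and 0.36 without iTreg replicate 4. All 3 were lower in e_iTreg than in eTreg, at -0.07 to -0.44, whereas 14 of 16 Igkv rows were higher, and none of these differences was called. Rows naming Ighv1-47, Ighv1-54 and Ighv1-72 beside other symbols were higher there, by 0.50, 0.47 and 0.025. Leaving out 1 array put Ighv1-47 between -0.563 and -0.093, Ighv1-53 between -0.223 and 0.016 and Ighv1-54 between -0.19 and -0.1. Without the 3 low arrays, 16 of the 35 immunoglobulin rows were higher in e_iTreg.

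Joining segment Igkj1 was at 7.51, 5.35, 7.27 and 10.93 in iTreg, at 6.3, 6.27, 6.87 and 6.04 in e_iTreg and at 7.22, 6.84, 5.67 and 5.50 in eTreg. Its lowest value of all 12 arrays was in iTreg replicate 2, and it differed by 1.46 ± 0.80 against eTreg (limma, adjusted p = 0.332). Without iTreg replicate 2 that difference was 2.26, and without iTreg replicate 4 it was 0.40. The row annotated to Igkv4-53, Igkj1 and Igkv6-23 together was at 13.25, 12.54, 12.79 and 14.28 in iTreg, at 13.04, 12.75, 12.44 and 9.32 in e_iTreg and at 12.83, 12.86, 9.25 and 9.65 in eTreg. In 9 arrays it thus lay above 12 and in the other 3 near 9, and its difference of 2.07 ± 0.88 against eTreg was not called (limma, adjusted p = 0.177). Without the 3 low arrays that difference was 0.37. The other rows with several symbols differed between iTreg and eTreg by 0.80 to 2.23, with adjusted p-values from 0.102 to 0.394 in limma.

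Variable and constant segments differed in the same direction in every comparison. Between iTreg and eTreg the median difference was 1.59 over the 20 variable rows (range 0.77 to 3.29) and 1.32 over the 9 constant rows (range 0.48 to 2.50), and 12 of 20 and 5 of 9 had an unadjusted p under 0.05. Between iTreg and e_iTreg the medians were 1.27 and 1.19, with 5 of 20 and 1 of 9 rows under that p. Between e_iTreg and eTreg they were 0.18 and 0.28, with 15 of 20 and 9 of 9 rows higher and none under it. No test of the difference between the classes was made, since the rows of a class share their arrays and near-identical sequences.

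The mean of the 20 variable rows was 7.08, 5.95, 6.28 and 10.19 in the iTreg arrays, 6.54, 6.16, 5.97 and 5.06 in e_iTreg and 6.32, 6.35, 5.21 and 5.04 in eTreg. The mean of the 9 constant rows was 8.90, 8.19, 8.27 and 11.62 in iTreg, 8.48, 8.31, 8.65 and 7.39 in e_iTreg and 8.46, 8.34, 7.29 and 7.44 in eTreg. In both classes the same array was highest and the same 3 arrays were lowest, and the other 8 arrays spanned 1.14 units in the variable and 0.72 in the constant class. As group means, variable rows stood at 7.38 ± 1.94 in iTreg, 5.93 ± 0.63 in e_iTreg and 5.73 ± 0.70 in eTreg, and constant rows at 9.25 ± 1.61, 8.21 ± 0.56 and 7.88 ± 0.60 in the same order (SD, n = 4 each).

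**Figure D2:**
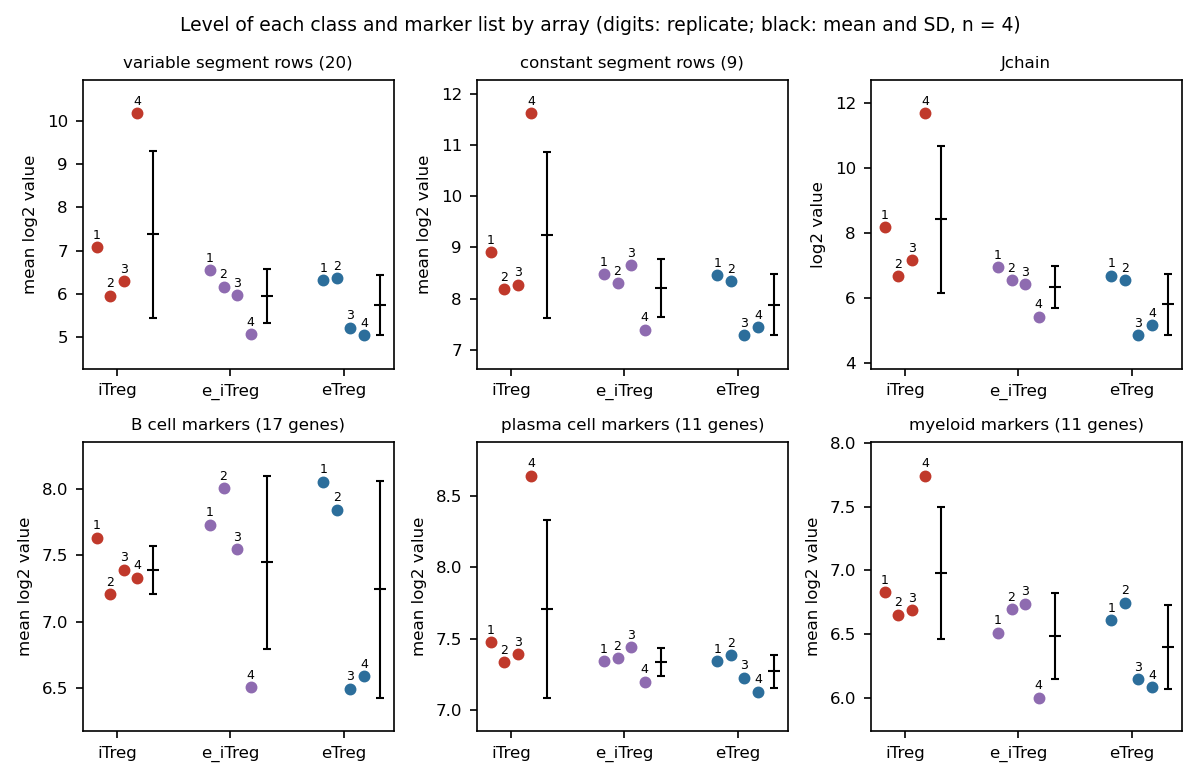
Mean log2 value (vertical axes) of the variable rows, the constant rows, Jchain and 3 marker lists in each array, by group (horizontal axes), with digits for replicates and black bars for the group mean and SD of 4 arrays. iTreg replicate 4 is highest in both classes, in Jchain and in the plasma cell and myeloid markers, at 8.64 and 7.75, but not in the B cell markers, at 7.33.

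The excess of iTreg replicate 4 over the mean of iTreg replicates 1 to 3 had a median of 3.72 over the 35 rows, against -0.02 over all rows. It was 3.77 at the median of the variable rows (range 2.09 to 6.28) and 3.72 at that of the constant rows (range 0.66 to 4.87). In 28 of the 35 rows this array exceeded each of the other 11 arrays by 2 or more, against 0.154% of all rows tested. Igkv4-59 was at 9.94 in iTreg replicate 4, against 4.09, 3.46 and 3.46 in iTreg replicates 1 to 3, where the row was dim, so no fold is given. In Igkv4-70, Ighm row 5, Ighm row 7 and Ighg3 row 1 the excess was 5.02, 4.87, 4.84 and 4.72.

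The excess was smaller in bright rows. Over the 7 rows whose mean over the other 11 arrays was above 9 its median was 2.09 (range 0.88 to 2.81), over the 16 rows from 6 to 9 it was 4.13 (range 2.77 to 5.02) and over the 12 rows under 6 it was 3.77 (range 0.66 to 6.28). Igkv5-43 row 1, at 14.32, was the brightest of all rows on that array, and only 1 and 2 rows were brighter than the Igkv4-53, Igkj1 and Igkv6-23 row and the row of Igkv9-124 and Igkv4-70. The highest value of the whole table was 14.33, and the part of this upper limit in the smaller excess was not tested.

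The list of 17 B cell markers was not high in iTreg replicate 4. Its mean was 7.33 there, against 7.63, 7.21 and 7.39 in iTreg replicates 1 to 3, and 1 of 17 markers, the adaptor Blnk at 8.94, was highest there. Ms4a1 (CD20) was at 7.35 against 7.95, 7.38 and 7.46, and Cd79a, a signalling chain of the B cell receptor, at 7.89 against 7.86, 7.33 and 7.97. The list of 11 B cell receptor signalling genes, by contrast, had its highest mean there, at 7.98 against 7.66, 7.37 and 7.51 in iTreg replicates 1 to 3, and eTreg replicate 1 was next at 7.96. Of these, 6 of 11 were highest there, namely Blnk, Syk, Btk, Plcg2, Fcgr2b and Ptpn6, genes whose expression is not limited to B cells.

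Plasma cell markers were high in that array. Their mean was 8.64 there, against 7.34 to 7.48 in iTreg replicates 1 to 3, and 10 of 11 were highest there. Mzb1, a chaperone of antibody assembly, was at 10.17 in that array against 7.59, 7.04 and 7.01 in iTreg replicates 1 to 3, and Derl3, of endoplasmic reticulum degradation, at 9.51 against 6.35, 6.57 and 6.82. Sdc1 (CD138) was at 7.36 against 6.76, 6.74 and 6.44, and Tnfrsf17 (BCMA) at 6.06 against 5.23, 5.34 and 5.49, both smaller differences than in Mzb1. Myeloid markers were higher there too, with a mean of 7.75 against 6.65 to 6.83 in the other iTreg arrays and 9 of 11 highest, led by Csf1r, the receptor of a macrophage growth factor, at 8.99 against at most 7.0. The part of these other cells in the immunoglobulin values was not tested.

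39 of the 25335 rows exceeded each other array by 2 or more in iTreg replicate 4, and 28 of them were immunoglobulin rows. The other 11, named after their values were seen, were Igh-VS107 in 2 rows, a heavy chain symbol outside the name rule, and Slpi, Mzb1, Derl3, C1qb, Prg2, Slc40a1, Spic, Sirpb1c and Mertk. C1qb (a complement component), Spic and Slc40a1 (a transcription factor and an iron exporter of splenic red pulp macrophages) stood at 9.83, 8.18 and 9.56 in that array, against at most 7.04, 5.70 and 6.49 in the other iTreg arrays. Brighter Igh-VS107 was at 12.69, against 8.71, 6.40 and 9.12.

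Leaving out iTreg replicate 4 moved the difference by over 1.5 times in 29 of 35 rows against eTreg and in 32 of 35 against e_iTreg. In these comparisons of iTreg, leaving out e_iTreg replicate 4 did so in 9 rows against e_iTreg and any other single array in at most 4. Between e_iTreg and eTreg, where differences were small, leaving out any 1 array of those groups did so in 16 to 27 of 35 rows. Without iTreg replicate 4, the median difference between iTreg and eTreg was 0.63, with 33 of 35 rows higher, and limma called 0 rows, against 8.11% of all rows. Between iTreg and e_iTreg the median was 0.34, with 32 of 35 higher, and limma called 1 row, Ighv1-54, at 0.46 ± 0.11 (adjusted p = 0.0188), against 8.73% of all rows. The medians were 0.62 in the variable rows and 0.48 in the constant rows against eTreg, and 0.35 and 0.33 against e_iTreg.

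**Figure D3:**
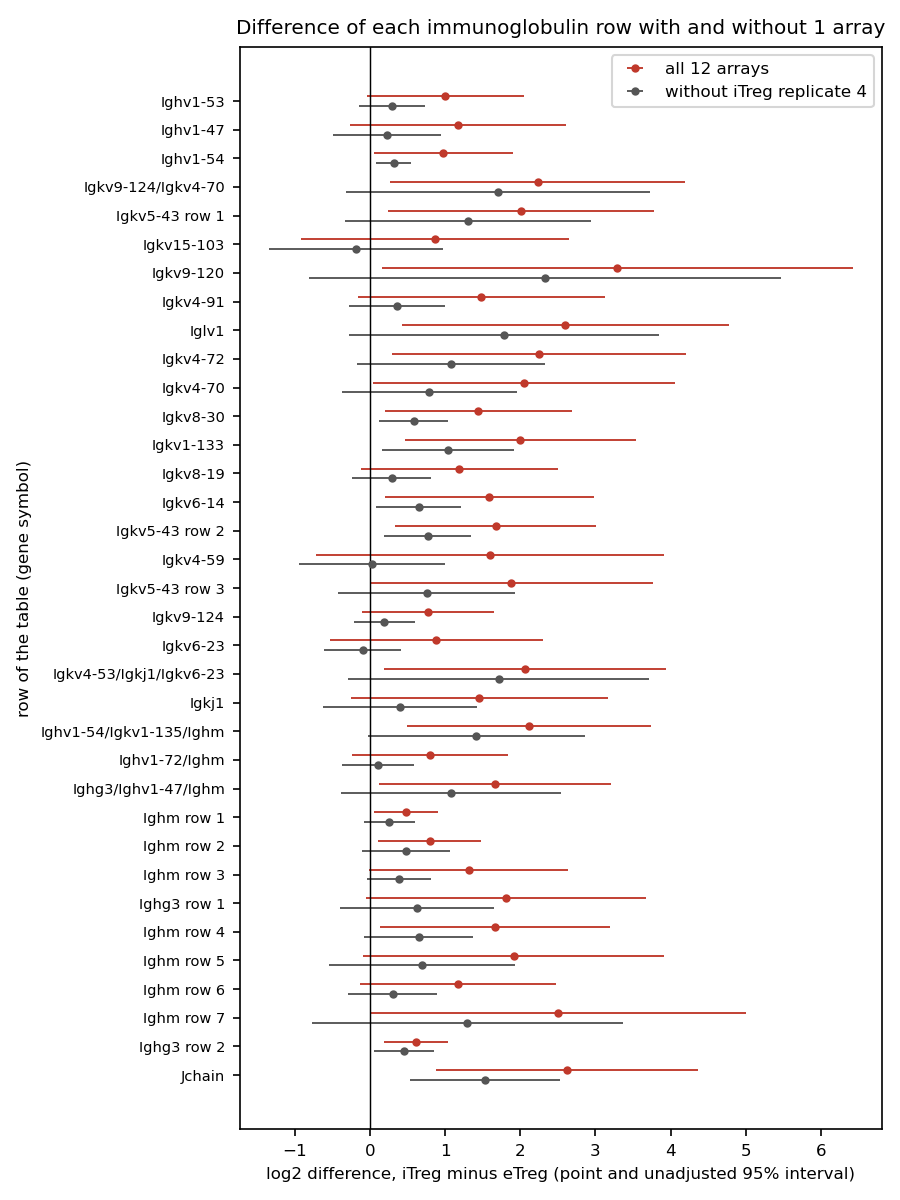
Log2 difference between iTreg and eTreg of each immunoglobulin row (horizontal axis; rows on the vertical axis), with unadjusted 95% intervals, over all 12 arrays (red) and without iTreg replicate 4 (grey). All 35 red points lie above 0 and 33 grey ones do, and Jchain moves to 1.53 without that array, against 2.62 with it.

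The 3 arrays lowest in B cell markers were set beside the other 5 eTreg and e_iTreg arrays as a description. The B cell marker mean was 6.51 in e_iTreg replicate 4 and 6.5 and 6.59 in eTreg replicates 3 and 4, against 7.54 to 8.05 in the other 5. Immunoglobulin rows had a median difference of -0.87, and in 23 of 35 rows all 3 lay below all 5, against 3.34% of all rows tested. Igkv9-120, the Igkv4-53, Igkj1 and Igkv6-23 row, the Igkv9-124 and Igkv4-70 row, Ighm row 7 and Iglv1 were lowest, with differences of -4.44, -3.38, -3.36, -3.23 and -3.14. The rows of Igkv6-23 and of Igkv9-124 alone went the other way, by 0.47 and 0.064. Both were dim, with means of 3.44 and 4.04 over the 12 arrays, and the brighter rows that also name these segments differed by -3.38 and -3.36.

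This difference took in 18 of 20 variable rows, with a median of -0.57 and 10 rows fully apart, and 9 of 9 constant rows, with a median of -0.86 and 7 fully apart. The 3 Ighv rows differed by -0.40 or less in size, and none was fully apart. Ighv1-54 and Ighv1-47 were dim, with means of 2.8 and 4.58 over the 12 arrays. The 5 rows with several symbols were all fully apart, with a median of -2.37. Those naming Ighv1-47, Ighv1-54 and Ighv1-72 differed by -2.37, -2.36 and -0.48. The difference of the 3 low arrays was also larger in bright rows, with medians of -2.37 above a level of 9, -1.01 from 6 to 9 and -0.45 under 6, the opposite order to the excess of iTreg replicate 4 between the bright and the middle rows. Of the B cell markers 16 of 17 were fully apart in the same way. The 3 arrays were picked by the mean of those markers, so that count follows from the choice and is no separate result.

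**Figure D4:**
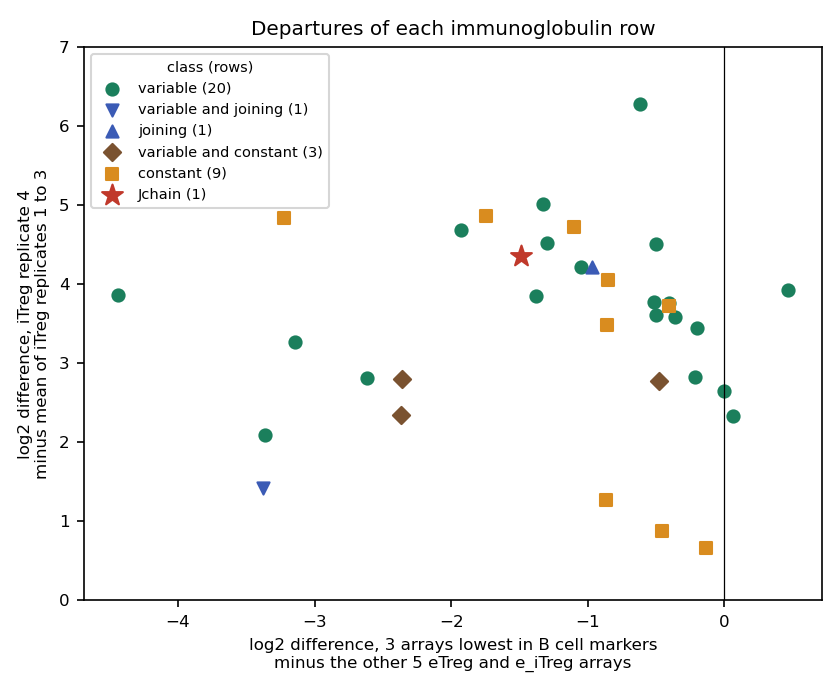
Each immunoglobulin row by its log2 difference between the 3 arrays with the least B cell marker signal and the other 5 eTreg and e_iTreg arrays (horizontal axis) and its excess in iTreg replicate 4 over the mean of iTreg replicates 1 to 3 (vertical axis), with symbols for classes. All 35 rows lie above 0 on the vertical axis and 33 lie left of 0, and the rows farthest left are not those highest up.

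Leaving out these 3 arrays, an alternative chosen after the data were seen, gave a median difference of 0.99 between iTreg and eTreg, 1.08 between iTreg and e_iTreg and -0.02 between e_iTreg and eTreg, with 35, 35 and 16 of 35 rows higher. With iTreg replicate 4 left out as well, the medians were 0.10 and 0.12 for iTreg against eTreg and e_iTreg, with 24 and 23 of 35 rows higher. The constant rows then had medians of 0.08 and -0.02 and the variable rows 0.16 and 0.16. In direct values, iTreg replicates 1 to 3 minus those 5 arrays gave a median of 0.10 over all 35 rows, 0.17 over variable rows (17 of 20 higher), -0.04 over constant rows (4 of 9 higher) and 0.71 for Jchain, while the B cell marker mean differed by -0.42.

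With the B cell marker mean as a covariate, limma called 3 rows higher in iTreg than in eTreg, against 9.67% of all rows, and 4 against e_iTreg, against 11.9%. The 3 were the row of Ighv1-54, Igkv1-135 and Ighm (1.88 ± 0.52, adjusted p = 0.0342), that of Igkv9-124 and Igkv4-70 (1.88 ± 0.44, adjusted p = 0.0132) and that of Igkv4-53, Igkj1 and Igkv6-23 (1.72 ± 0.32, adjusted p = 0.00363), each with several symbols. Leaving out eTreg replicates 3 and 4 and e_iTreg replicate 4, with no covariate, gave 0.84, 0.57 and 0.37 against eTreg. None of the 3 rows was then called (limma, adjusted p = 0.647, 0.712 and 0.749). With iTreg replicate 4 also left out, the differences were 0.14, 0.049 and 0.014. These 3 rows were thus called with the covariate, but neither in the main fit nor without the low arrays, where fewer arrays remained. The cause of the change was not tested. The 4 rows called against e_iTreg with the covariate were these 3 and Igkv9-120 (3.93 ± 0.91; limma, adjusted p = 0.0116). Without the 3 low arrays and with no covariate, Igkv9-120 differed from e_iTreg by 2.42 (limma, adjusted p = 0.135). With the covariate and without iTreg replicate 4, a pair of choices made after the data were seen, limma called 7 and 6 rows, all higher, against 8.10% and 9.73% of all rows. Jchain was among them in both, at 1.35 ± 0.21 (adjusted p = 0.00121) and 1.04 ± 0.21 (adjusted p = 0.00643). With the plasma cell marker mean as a covariate no immunoglobulin row was called by limma in any comparison, and 1, 1 and 2 rows had an unadjusted p under 0.05. The medians were 0.22 and 0.15 for iTreg against eTreg and e_iTreg, with 26 of 35 rows higher in each. That covariate was 8.64 in iTreg replicate 4 and 7.13 to 7.48 in all other arrays, so it came close to marking that single array. The shares of all rows in this fit are not given here.

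Further genes were taken from lists linked to antibody secreting cells, protein folding and other cell types, chosen with earlier results of these data known. Being listed does not tie a gene's signal in these T cell sorts to antibody secretion, and the source of each signal was not tested. Counts are read against the shares of all rows called, 10% against eTreg and 11.2% against e_iTreg. Of 11 measured plasma cell markers, limma called 1 higher in iTreg than in eTreg, the endoplasmic reticulum protein Creld2 (1.02 ± 0.27, adjusted p = 0.0244), and 1 lower, the elongation factor Ell2 (-1.06 ± 0.21, adjusted p = 0.00492). The same 1 and 1 were called against e_iTreg. Of 12 transcription factors tied to antibody secreting cells, 1 was called higher against eTreg, Prdm1 (Blimp-1), at 1.04 ± 0.19 (limma, adjusted p = 0.00380), and 4 lower, among them Bach2 (-1.02 ± 0.15) and Bcl6 (-0.81 ± 0.14), which restrain plasma cell formation in B cells and are expressed in T cells too, Zbtb20 (-1.01 ± 0.15) and the octamer-binding factor Pou2f2 (-0.42 ± 0.10). Prdm1 was at 9.08, 8.77, 8.59 and 9.38 in iTreg, against 8.08, 7.83, 7.74 and 8.01 in eTreg, so the groups did not overlap and replicate 4 did not stand apart as it did in the immunoglobulin rows. Irf4, Xbp1 and Pou2af1 were at 0.65 ± 0.22, 0.13 ± 0.21 and 0.38 ± 0.30 and were not called.

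The folding and secretion list had 8 of 19 genes called higher in iTreg than in eTreg and 1 lower, and 9 and 1 against e_iTreg. Without iTreg replicate 4 the counts were 6 and 1 against eTreg and 5 and 1 against e_iTreg. Sdf2l1, a chaperone cofactor of the endoplasmic reticulum, was at 9.41, 9.51, 9.62 and 10.11 in iTreg, against 8.58, 8.19, 7.86 and 7.68 in eTreg, with a difference of 1.59 ± 0.21 (limma, adjusted p = 0.000777). Its groups did not overlap, and iTreg replicates 1 to 3 alone all lay above eTreg. Pdia6, a disulfide isomerase, Dnajb11, a cochaperone, and Hsp90b1, a chaperone, were called at 0.75 ± 0.12, 0.71 ± 0.12 and 0.84 ± 0.17, and the cochaperone Dnajb9 was called lower at -0.52 ± 0.11.

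No gene was called in 3 further lists against eTreg: 0 of 17 B cell markers, 0 of 11 genes of B cell receptor signalling and 0 of 14 genes of recombination, switching and the surrogate light chain. Against e_iTreg only Xrcc6, a subunit of the Ku end-joining complex, was called among these 3 lists (0.66 ± 0.11; limma, adjusted p = 0.00225). The medians of the 3 lists against eTreg were 0.12, 0.22 and 0.08. Pax5 and Cd79b, a B cell transcription factor and the partner chain of Cd79a, differed by 0.32 ± 0.38 and 0.13 ± 0.27, and neither was called. Of 11 myeloid markers 1 was called higher against eTreg, the integrin Itgam (1.68 ± 0.29; limma, adjusted p = 0.00262), and of 10 Treg markers 1 lower, Ikzf4 (-1.04 ± 0.14; limma, adjusted p = 0.000794), while Foxp3 and Il2ra were at -0.29 ± 0.13 and -0.12 ± 0.14. Of 6 T cell identity genes none was called, and in e_iTreg against eTreg no gene of any list was.

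Outside the immunoglobulin rows, the named genes most like Jchain over the 12 arrays were Creld2, Psme3ip1, Mzb1, Ly6c2 and Lcn2, with Pearson correlations of 0.96, 0.95, 0.95, 0.94 and 0.94. Over the 11 arrays without iTreg replicate 4 the correlations were 0.85, 0.82, 0.87, 0.83 and 0.82. These are descriptions over arrays of 3 groups, in which 1 array lay far from the rest.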

How the data were processed

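Expression was measured in 12 samples on Affymetrix mouse gene arrays; per the labels' protocols 2 ng of total RNA per sample went through a pair of amplification rounds, which can magnify small differences in rare transcripts. The deposited values are log2 expression per probe set, made by the authors with oligo and RMA per the submitters' processing notes; their versions and settings are not given in the sources used here. RMA fits probes jointly and sets all arrays to 1 distribution, and probes of near-identical segments can read several genes, so the identity of a single segment is uncertain. No build was named for the arrays, so rows have no positions here, and whether a row named Ighm reads constant exons could not be settled. Of 41345 rows, 23521 had 1 symbol, 1814 several and 16010 none in the platform annotation. All 30 member rows with 1 symbol matched a RefSeq gene number (GRCm38.p6, used for names and for the Jchain promoter).

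Arrays were grouped as the series design states. limma 3.58.1 in R 4.3.3 fitted 1 linear model to all 3 groups of 4 (lmFit and eBayes, 9 residual and 5.66 prior degrees of freedom) on the 25335 rows with a symbol, two-sided, with Benjamini-Hochberg adjustment over all of them and no replicate block. The median standard error of a difference was 0.12. The fit was tested on simulated data. Tests measure only the spread among these samples. Members and lists were chosen with earlier results of these data known. Named rows were all constant, Jchain and Igkj rows, the 4 variable rows with the smallest p per comparison, those with the widest range and those highest in an array that stood apart, and of the other lists a fixed set plus up to 4 called members. A list gene was taken where a row carried its symbol alone. Igh-VS107 and the other genes that exceeded every array by 2 or more, C1qb, Spic and Slc40a1 among them, and Csf1r, Blnk, Derl3 and Pou2f2 in their single arrays were chosen after their values were seen. Alternatives were other normalizations, filters on dim rows, other row sets, error models, array weights, the compared groups alone, a replicate block, other thresholds, marker means as covariates and leaving out arrays.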

Additional observations from a re-analysis of the deposited data

Results flagged for a closer look

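In 111 groups of 4 arrays (35 rows and both class means in 3 groups), the gap of the highest or lowest array to its nearest neighbour was set against the group's whole range, by Dixon's criterion. Chance flags about 1 in 20 such groups, and the rows share arrays. In iTreg, replicate 4 was far above the other 3 in 5 rows, with ratios of 0.968 in Ighm row 6, 0.881 in Ighm row 3, 0.924 in Ighv1-54, 0.902 in Igkv4-59 and 0.910 in Igkv6-23. In e_iTreg, replicate 4 was far below the other 3 in 4 rows, with ratios of 0.888 in the row of Ighg3, Ighv1-47 and Ighm, 0.865 in that of Ighv1-54, Igkv1-135 and Ighm, 0.904 in Ighm row 2 and 0.838 in that of Igkv4-53, Igkj1 and Igkv6-23. In eTreg, replicate 2 was far above the other 3 in Ighv1-47, at 5.37 against 3.96 to 4.04, a ratio of 0.948. No eTreg row singled out replicate 3 or 4, which were low together.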

How the results depend on the processing

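Each of the 3 counts of called rows was recomputed under 29 alternatives, and the count for e_iTreg against eTreg was 0 in all of them. Shares of all rows called are given above for the main fit, without iTreg replicate 4 and with the B cell marker covariate. For the other alternatives the shares are not given, so whether immunoglobulin rows were called more often than other rows there was not tested. For iTreg against eTreg, 0 rows became 1 with quantile normalization (Ighg3 row 2), 1 with only rows above the median row or above log2 6 (Jchain; 23 and 24 of the 35 rows remained to be tested), 2 with array weights, 2 at adjusted p 0.1, 3 with the B cell marker covariate and 7 with that covariate and without iTreg replicate 4, and leaving out 1 array at a time gave 0 to 2. For iTreg against e_iTreg the count was 4 with the covariate and 6 with it and without iTreg replicate 4, and leaving out 1 array gave 0 to 1, the 1 without iTreg replicate 4. The Jchain difference between iTreg and eTreg became a limma call at 2.62 with either filter (adjusted p = 0.0363 above the median row and 0.0399 above log2 6, with fewer rows tested) and at the threshold of 0.1, at 2.62 with array weights (adjusted p = 0.0398) and at 1.35 with the covariate and without iTreg replicate 4. Leaving out 1 array gave 1.53 to 3.20, with calls without iTreg replicate 2 (adjusted p = 0.0254) or 3 (adjusted p = 0.0465). Without iTreg replicate 4 and the 3 arrays poor in B cell markers it was 0.725. Over its alternatives its adjusted p in limma ran between 0.00121 and 0.452. Against e_iTreg it became a call at 1.04 with the covariate and without iTreg replicate 4. Between iTreg and eTreg the median of the variable rows moved to 0.23 with the plasma cell covariate and to 0.16 without iTreg replicate 4 and the 3 arrays poor in B cell markers (chosen after the data were seen), and that of the constant rows to 0.14 and 0.075; against e_iTreg the constant rows moved to 0.07 and -0.022. Leaving out 1 array gave medians of 0.62 to 2.11 (variable) and 0.48 to 1.68 (constant) against eTreg and of 0.35 to 1.84 and 0.33 to 1.63 against e_iTreg, each lowest without iTreg replicate 4. The cause of these changes was not tested. The replicate number as a block gave 0 called rows in each comparison. Same-numbered arrays of different groups had deviations from their group means correlated between -0.14 and 0.24, against -0.36 to 0.48 for differently numbered arrays. These correlations cannot decide whether arrays were paired. The labels state no pairing, and none was assumed. Dim rows, near or under log2 4, limit what the fits can show.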

Other observations

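Counts of rows far from their own median over 12 arrays describe each array. In iTreg replicate 4, 31 of the 35 immunoglobulin rows lay 2 or more above it, and no other array had any. In iTreg replicate 1, 11 rows lay 1 or more above it, and 15, 16 and 13 rows lay 1 or more below it in eTreg replicate 3, eTreg replicate 4 and e_iTreg replicate 4.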
